A study of Rattus norvegicus with 13 samples.

Results

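miR-21 was described here through the mature microRNAs (miRNAs) of its 2 arms, rno-miR-21-5p and rno-miR-21-3p, in rat kidney after irradiation with or without lisinopril. These 2 members were chosen by name among 460 rat mature miRNAs, in a deposited table of 1121 features, and both passed the filter on low counts, which kept 419 of the 460. The study sequenced small RNA from the kidneys of 13 female rats of the inbred Wistar strain WAG/RijCmcr, 11 to 12 weeks of age and near 155 g in weight. The control group (n = 4) had neither radiation nor drug. The irradiated group (n = 4) was exposed to X-rays (320 kVp, 1.75 Gy per minute) to a dose of 13 Gy, with a single hind limb shielded and the kidneys in the field. Rats of the group given irradiation plus lisinopril (n = 5) were exposed in the same way. From day 7 their drinking water held lisinopril, which blocks angiotensin converting enzyme, at a daily dose of about 24 mg per square metre. Supportive saline from day 3 to day 7 and the antibiotic enrofloxacin up to day 14 followed irradiation, and the labels do not say whether the controls had them. Kidneys were taken on day 35, and each library is labelled as a kidney with its own number, with no litter, batch or pairing. Library totals over rat mature miRNAs ran from 1194175 counts in control library 2 to 11095939, and every library but that control held at least 4885082.

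miR-21 is made from a hairpin precursor that Dicer cuts into a 5p and a 3p strand, of which the 5p strand is the one mostly kept by Argonaute. The loaded strand represses messenger RNAs that match its seed, bases 2 to 8. In kidney, miR-21-5p is known as a miRNA that rises with injury and fibrosis in many models, that is induced by TGF-beta and STAT3, and whose known targets include Pdcd4, Ppara and Spry1. The series asks how miRNAs of the kidney change late after radiation and under an inhibitor of the renin-angiotensin system. RNA came from whole kidney, so fewer cells of a type and less RNA per cell cannot be told apart.

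The arms are shown first, because the counts below are assigned to these sequences. Both mature strands are 22 bases long, and capitals mark the seed. Sequences are from RefSeq (GRCr8).
rno-miR-21-5p: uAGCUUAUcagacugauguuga
rno-miR-21-3p: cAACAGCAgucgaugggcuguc
The hairpin that carries both is 92 bases long, with the mature arms in capitals at positions 18 to 39 and 56 to 77.
rno-mir-21 hairpin: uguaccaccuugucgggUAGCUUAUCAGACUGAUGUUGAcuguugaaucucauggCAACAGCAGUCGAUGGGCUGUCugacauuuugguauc
In GRCr8 the hairpin lies on the minus strand at chr10:71902600-71902691, the 5p arm at chr10:71902653-71902674 and the 3p arm at chr10:71902615-71902636. In the order of genes the locus stands between Tubd1, a tubulin gene, and Vmp1, which acts in autophagy, and the annotation lists no gene that overlaps it. The seed of miR-21-5p pairs with AUAAGCU in a messenger RNA, and that of miR-21-3p with UGCUGUU. Among 693 rat mature sequences in the RefSeq table, of which 414 matched a name in the count table, each of these seeds occurred in its own arm alone. The table of counts held 0 rat entries named miR-590, a relative of miR-21 in other mammals. No mature sequence in the RefSeq table shared a run of 16 or more bases with either arm.

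miR-21-5p was an abundant miRNA of these kidneys, and its level was lowest on average in the irradiated group. Levels are counts per 1000000 rat mature miRNA reads (CPM) on library sizes scaled by TMM, a trimmed mean of ratios between libraries. In the 4 control kidneys miR-21-5p stood at 20224, 18628, 11741 and 13845 CPM. In the 4 irradiated kidneys it stood at 10569, 6654.5, 9292 and 16087 CPM. Irradiated libraries 1 to 3 lay below every control, whereas irradiated library 4 lay above controls 3 and 4, so the groups overlap. With lisinopril the 5 kidneys stood at 11329, 14182, 17310, 12462 and 15859 CPM, which overlaps both other groups. The counts behind these values ran from 17512 to 167403 per library, so that counting error was small beside the spread between rats.

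**Figure D1:**
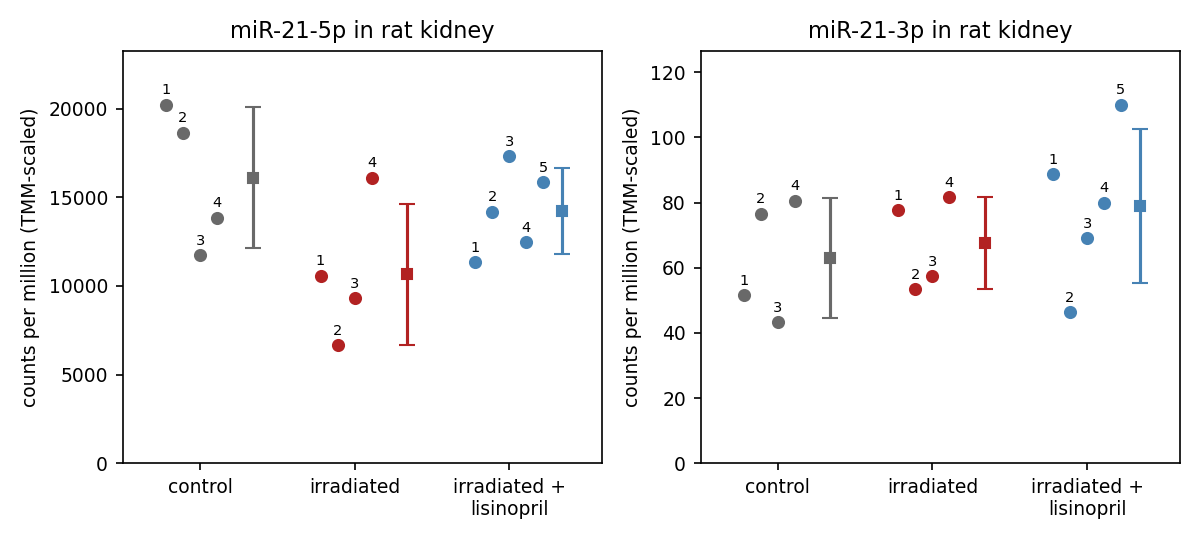
CPM of miR-21-5p and miR-21-3p in each kidney (numbered points); squares and bars give the mean ± SD of the group, over 4 control, 4 irradiated and 5 lisinopril-treated irradiated kidneys. For miR-21-5p irradiated libraries 1 to 3 lay at or under 10569 CPM, below the lowest control at 11741 CPM, and irradiated library 4 was at 16087 CPM.

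Group means of miR-21-5p were 16110 ± 3978 CPM in control (SD, n = 4), 14228 ± 2433 CPM with irradiation plus lisinopril (SD, n = 5) and 10651 ± 3974 CPM with irradiation alone (SD, n = 4). Neither pair of neighbours in that order differed beyond its spread, by the tests below. The coefficient of variation was 24.7%, 17.1% and 37.3% in the same order of groups. miR-21-5p held between 0.790% and 1.86% of all rat mature reads of a library.

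By mean read count, miR-21-5p was the 15th of the 419 tested miRNAs, at 13706 CPM over the 13 libraries. The 5 most abundant were miR-10a-5p (345162 CPM), the epithelial miR-30a-5p (81375 CPM), the kidney-enriched miR-192-5p (66811 CPM), miR-22-3p (65667 CPM) and miR-26a-5p (50802 CPM). Next above miR-21-5p stood miR-3557-5p, with a mean of 16699 CPM and a range of 13948 to 20952 CPM, and next below stood let-7f-5p, with 13379 CPM and a range of 6846 to 17770 CPM. These ranges overlap that of miR-21-5p, and its rank within a library ran from 11 to 19. The SD of its log2 CPM over the 13 libraries was 0.444, the third highest among the 59 miRNAs whose mean reached 1000 CPM, whose median SD was 0.235.

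Between irradiated and control kidneys, the level of miR-21-5p was lower in the irradiated group by a log2 fold change of -0.60 (SE 0.238, 95% interval -1.10 to -0.09), or 0.661 times the control level, which did not pass edgeR's quasi-likelihood test after Benjamini-Hochberg adjustment over 419 miRNAs (adjusted p = 0.143). Its unadjusted p was 0.0243, the 70th smallest of the 419. A two-sided exact permutation test over the 8 libraries gave p = 0.114 where 4 against 4 can reach 0.0286. In this comparison 7 of 419 miRNAs passed the adjusted test (1.67%), 93 had an unadjusted p under 0.05 (22.2%), and 30 had groups that did not overlap (7.16%). Of the 7, 2 were higher (0.477%) and 5 lower (1.19%), and the median log2 fold change of all 419 was 0.02.

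The miR-21-5p difference rested on which irradiated kidneys entered it. Without irradiated library 4, its log2 fold change was -0.86 and passed (adjusted p = 0.0229), and without irradiated library 2, the lowest, it was -0.42 (adjusted p = 0.410). Over 29 alternative settings the direction held, from -0.86 to -0.34, and 2 of the 29 passed, both of them without irradiated library 4.

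**Figure D2:**
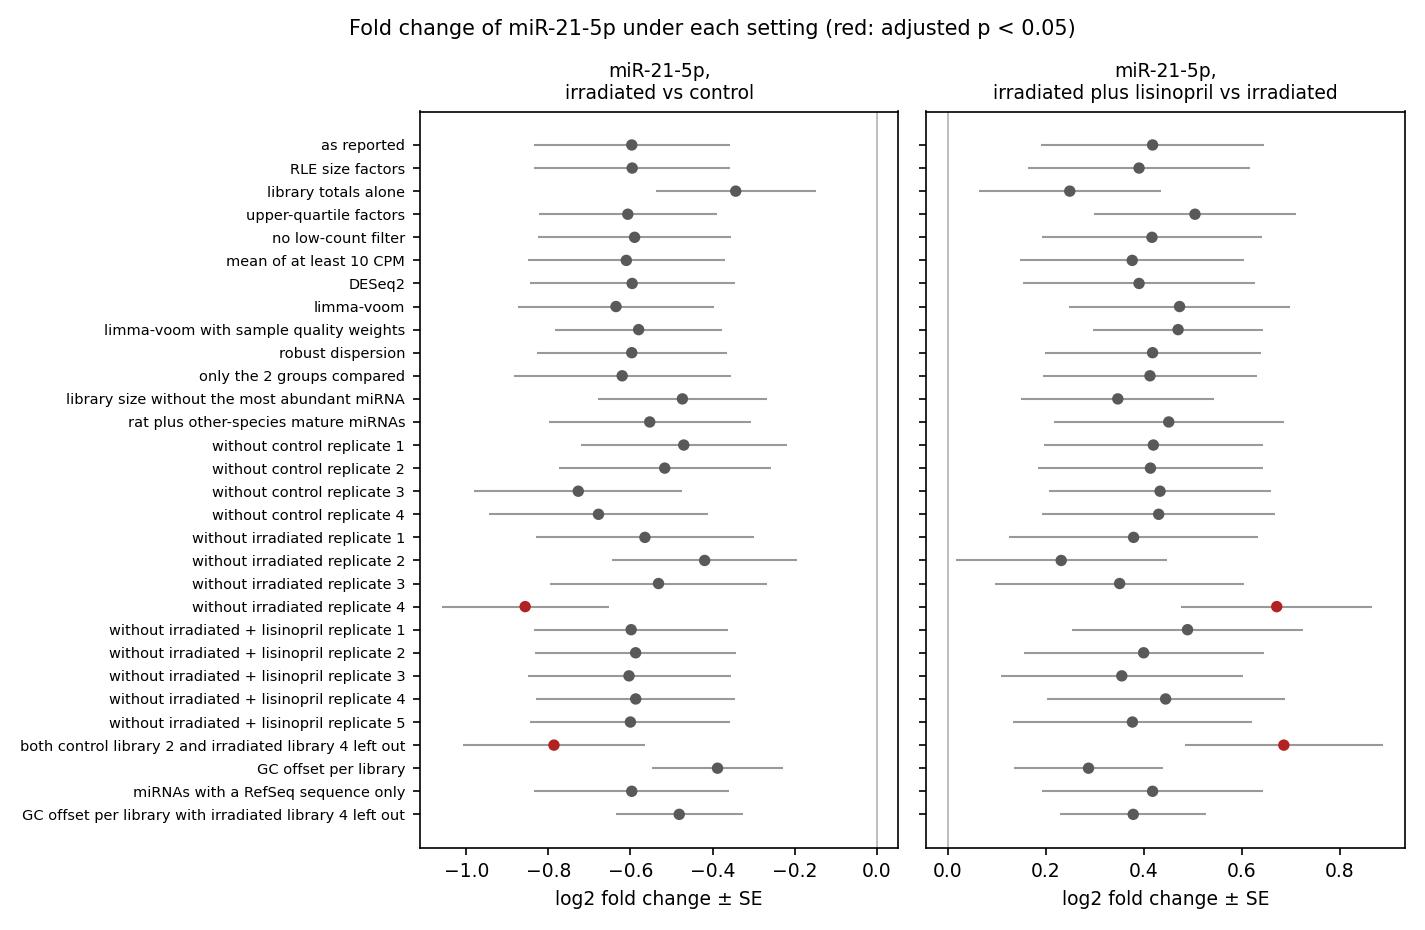
Log2 fold change of miR-21-5p (points, with SE as bars) under each setting, for irradiated against control and for irradiated plus lisinopril against irradiated; red points have an adjusted p under 0.05. All points in the left panel lie below 0, from -0.86 to -0.34, all in the right panel lie above 0, from 0.23 to 0.69, and the 2 red points of each panel are fits without irradiated library 4.

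Between the irradiated groups, the level of miR-21-5p was 1.34-fold higher with lisinopril, a log2 fold change of 0.42 (SE 0.227, 95% interval -0.07 to 0.90), which did not pass (edgeR adjusted p = 0.397). The exact permutation test over 9 libraries gave p = 0.111, where 4 against 5 can reach 0.00794. edgeR called 0 of 419 miRNAs in this comparison (0%), with 63 at an unadjusted p under 0.05 (15.0%) and 18 without overlap between groups (4.30%), while DESeq2 called 11, limma-voom 2 and limma-voom with sample quality weights 33. Without irradiated library 4 the log2 fold change of miR-21-5p was 0.67 (adjusted p = 0.041), and without irradiated library 2 it was 0.23 (adjusted p = 0.795). The comparison shares its 4 irradiated libraries with the comparison against control, so the same libraries weigh on both.

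Between irradiated plus lisinopril and control kidneys, miR-21-5p differed by a log2 fold change of -0.18 (SE 0.225, 95% interval -0.66 to 0.30, edgeR adjusted p = 0.758; exact permutation p = 0.437). In this comparison 26 of 419 miRNAs passed (6.21%), 3 of them higher (0.716%) and 23 lower (5.49%), while 95 had an unadjusted p under 0.05 (22.7%) and 56 had groups that did not overlap (13.4%). The interval holds no change as well as a fall of 0.66 on the log2 scale. After adjustment over the 6 permutation tests of both arms, the smallest p was 0.343.

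miR-21-3p, the strand that is mostly discarded, was read at a far lower level, and its group means stood in another order. Control kidneys held 401, 72, 448 and 683 reads, or 51.6, 76.6, 43.2 and 80.6 CPM. Irradiated kidneys held 415, 430, 412 and 485 reads, or 77.6, 53.4, 57.5 and 81.7 CPM. Kidneys with lisinopril held 543, 443, 668, 824 and 950 reads, or 88.8, 46.3, 69.1, 79.9 and 110 CPM. All 3 groups overlap, and the value of control library 2 rests on 72 reads. Group means were 63.0 ± 18.4 CPM in control (SD, n = 4), 67.5 ± 14.2 CPM in irradiated (SD, n = 4) and 78.8 ± 23.6 CPM with lisinopril (SD, n = 5), and miR-21-3p was the 166th miRNA by mean read count.

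No comparison of miR-21-3p passed. Its log2 fold change was 0.11 in irradiated against control kidneys (SE 0.261, 95% interval -0.44 to 0.67, edgeR adjusted p = 0.820; exact permutation p = 0.571). The sign of that value turned without control library 3, to -0.042. Lisinopril against irradiation alone gave 0.22 (SE 0.245, 95% interval -0.30 to 0.75, adjusted p = 0.652), and against control 0.34 (SE 0.248, 95% interval -0.19 to 0.87, adjusted p = 0.490).

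The ratio of the arms does not depend on how libraries are scaled. The arms differ in their share of G and C bases (36.4% in miR-21-5p, 59.1% in miR-21-3p). The ratio was not adjusted for the trend with that share described below, whose part in it was not tested. For each miR-21-3p read, control kidneys held 392, 243, 272 and 172 reads of miR-21-5p. Irradiated kidneys held 136, 125, 162 and 197, and kidneys with lisinopril held 128, 306, 251, 156 and 144. Irradiated libraries 1 to 3 lay below every control in this measure too, and irradiated library 4 lay above control library 4 alone.

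**Figure D3:**
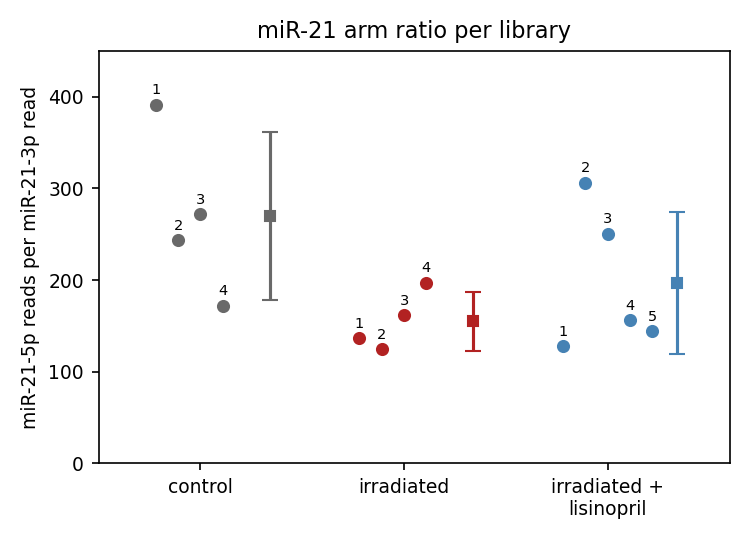
Reads of miR-21-5p per read of miR-21-3p in each kidney (numbered points); squares and bars give the mean ± SD of the group, over 4 control, 4 irradiated and 5 lisinopril-treated irradiated kidneys. Irradiated kidneys lie between 125 and 197, controls between 172 and 392, and kidneys with lisinopril span from 128 to 306.

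Mean arm ratios were 270 ± 91.6 in control (SD, n = 4), 155 ± 32.0 in irradiated (SD, n = 4) and 197 ± 77.7 with lisinopril (SD, n = 5). On the log2 scale, with 0.5 added to each count, the irradiated kidneys were lower than controls by 0.76, as -0.76 in log2 ratio (two-sided exact permutation p = 0.0571, adjusted p = 0.171 over 3 comparisons). Lisinopril differed from irradiation alone by 0.28 (exact permutation p = 0.381, adjusted p = 0.381) and from control by -0.47 (exact permutation p = 0.222, adjusted p = 0.333). Stated as a share, miR-21-3p made up 0.255% of the reads of both arms in control library 1 (95% exact Clopper-Pearson interval 0.230% to 0.281%), the lowest, and 0.795% in irradiated library 2 (0.722% to 0.874%), the highest. These intervals treat the reads of a library as independent and leave out the spread between rats. Reads carried no molecular identifiers, so copies of a single molecule were counted as separate reads.

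Ratios of miR-21-5p to other miRNAs of the same library were lowest in the irradiated group. Against each of the 10 other miRNAs with the highest mean, the ratio was lower in irradiated than in control kidneys in 10 of 10 cases, by log2 differences from -0.79 (miR-181a-5p) to -0.05 (miR-192-5p), with a median of -0.50. With lisinopril it was higher than with irradiation alone in 10 of 10 cases, with a median of 0.29. Lisinopril against control gave 8 lower and 2 higher, from -0.36 to 0.07 with a median of -0.08. No ratio had groups that did not overlap, and the ratios share their numerator and their libraries.

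Across the 13 libraries the miRNAs whose log2 CPM was most like that of miR-21-5p were other abundant and scarce miRNAs, not its own 3p arm. Pearson's r was 0.959 for miR-30a-5p, 0.947 for miR-3559-5p, 0.945 for miR-3587, 0.934 for miR-301a-3p and 0.930 for miR-29b-3p, which targets collagen genes, among 282 miRNAs whose mean reached 10 CPM. The lowest were miR-324-3p (-0.926), miR-423-3p (-0.920) and miR-1843-3p (-0.920). For miR-21-3p r was 0.224. The median over the 282 was -0.03, and 25 exceeded 0.8. miR-3587 reads the opposite strand of miR-29b-3p over 21 bases at overlapping loci and held 1.086 to 1.176 times its counts, so the pair is reported as uncertain.

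These likenesses held within groups as well. For deviations from the group means, r was highest for miR-3559-5p (0.957), miR-542-3p (0.951) and miR-26b-5p (0.945), and for miR-21-3p it was 0.324. The points share libraries, depth and scaling, and r is given as a description. The most like miRNA, miR-30a-5p, stood at 103320, 100466, 71087 and 84456 CPM in control, at 67676, 53334, 62327 and 86214 CPM in irradiated kidneys, and at 70271, 79607, 91619, 85710 and 101789 CPM with lisinopril. As for miR-21-5p, irradiated libraries 1 to 3 were below every control and irradiated library 4 was not.

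The sequences of these miRNAs are shown for their base composition, which moved with the likeness. Capitals mark G and C, and the share of G and C (GC content) was 36.4% in miR-21-5p and 59.1% in miR-21-3p.
rno-miR-21-5p: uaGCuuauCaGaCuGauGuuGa
rno-miR-3559-5p: uGaCaGaCuuaGuaCuaCauGa
rno-miR-542-3p: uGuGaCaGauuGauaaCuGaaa
rno-miR-26b-5p: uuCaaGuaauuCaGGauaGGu
rno-miR-29b-3p: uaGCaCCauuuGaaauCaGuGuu
rno-miR-30a-5p: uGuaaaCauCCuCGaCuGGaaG
rno-miR-324-3p: CCaCuGCCCCaGGuGCuGCuGG
rno-miR-21-3p: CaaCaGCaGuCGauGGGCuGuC
GC content was 36.4% in miR-3559-5p, 31.8% in miR-542-3p, 33.3% in miR-26b-5p, 34.8% in miR-29b-3p and 45.5% in miR-30a-5p, against 72.7% in miR-324-3p. Of the 419 tested miRNAs, 376 (89.7%) had a RefSeq sequence. Across 254 of them with a mean of at least 10 CPM, GC content and the r with miR-21-5p had a Spearman correlation of -0.725. This is across miRNAs of the same libraries, which are not independent replicates.

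Fold changes moved with GC content in the comparisons that use the irradiated group. Between irradiated and control kidneys the Spearman correlation of GC content with the log2 fold change was 0.59, and the median log2 fold change was -0.17 in the lowest of 3 GC classes (22.7% to 42.9%, 94 miRNAs, 73 of them negative) and 0.27 in the highest (52.2% to 77.3%, 80 miRNAs, 69 of them positive). Between the irradiated groups it was -0.585, with class medians of 0.16 and -0.21. Between lisinopril and control it was 0.17. Of the 94 other miRNAs of the lowest class, 6 had a lower log2 fold change than miR-21-5p in irradiated against control kidneys. In lisinopril against irradiation alone 85 of the 94 had a lower one.

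**Figure D4:**
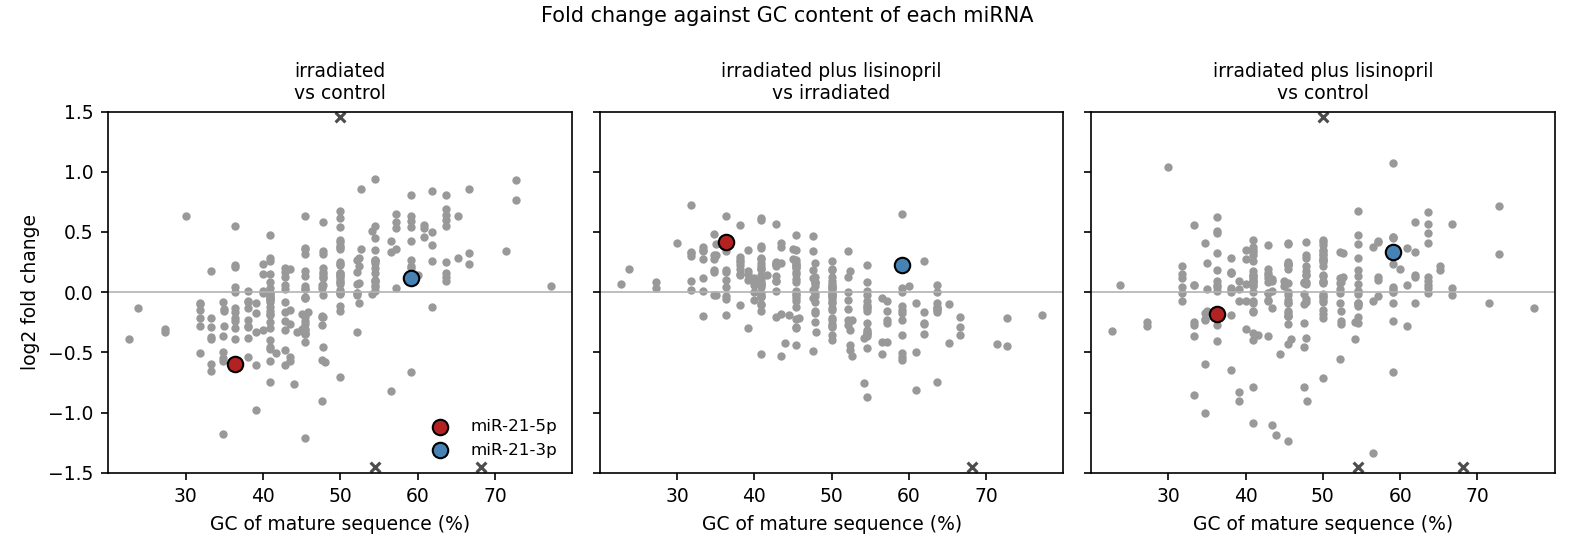
Log2 fold change of each miRNA against the GC content of its mature sequence, for 255 miRNAs that reached a mean of 10 CPM and have a RefSeq sequence, with miR-21-5p and miR-21-3p in colour. The axis ends at 1.5 in both directions, and crosses at the edge mark 3, 1 and 3 miRNAs beyond it. Grey points rise with GC content in the left panel and fall in the middle panel, and miR-21-5p lies at -0.60, 0.42 and -0.18.

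Per library, the slope of log2 CPM (as the deviation of each miRNA from its mean over libraries) on GC content was computed over 253 miRNAs, without the arms of miR-21. In log2 units per 10 percentage points of GC it was -0.230, -0.0842, -0.0111 and -0.00509 in controls and 0.0576, 0.395, 0.223 and -0.160 in irradiated libraries. With lisinopril it was 0.0329, -0.0127, -0.0198, -0.0477 and -0.138. Irradiated library 2, with the steepest positive slope, held the least miR-21-5p, and irradiated library 4, with the only negative slope of its group, held the most of its group. Over the 13 libraries r between this slope and the log2 CPM of miR-21-5p was -0.921 (Spearman -0.901). It was -0.793 over the 11 libraries left without irradiated libraries 2 and 3, which lay farthest from the median, and -0.882 for deviations from group means. For miR-21-3p it was -0.290.

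**Figure D5:**
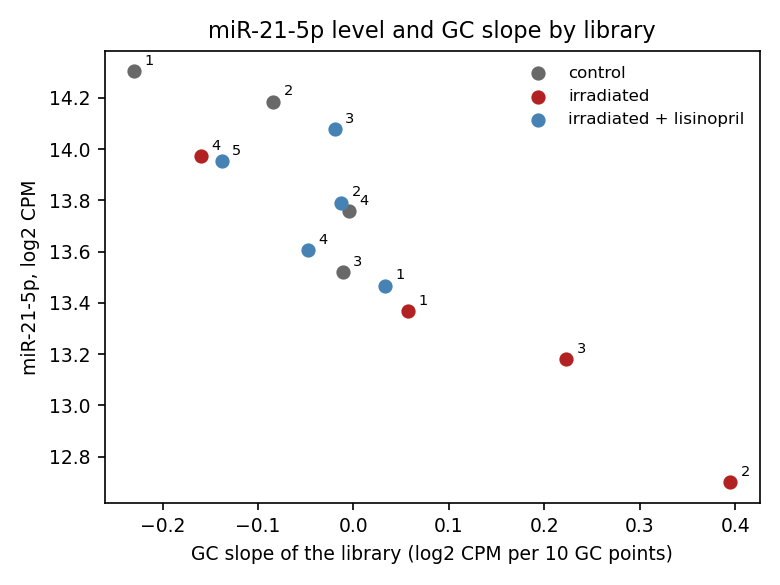
Log2 CPM of miR-21-5p in each of the 13 kidneys against that library's slope of log2 CPM on GC content over other miRNAs, by group. Points fall from upper left to lower right (r = -0.921), with irradiated library 2 at the lower right and irradiated library 4 among the controls at the upper left.

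An offset per library was taken from a quadratic curve of log2 CPM deviations on GC content, a setting chosen after the data were seen. Unlike the slopes above, the curve was fitted with the arms of miR-21 included. It had no term for group, so the offset also takes out any difference between groups that follows GC content. A smaller miR-21-5p difference under the offset therefore does not tell where that difference came from. Whether the GC trend arose in library preparation or in the kidneys was not tested. With this offset and 376 miRNAs tested, the miR-21-5p difference between irradiated and control kidneys was -0.39 (SE 0.160, edgeR adjusted p = 0.198). Lisinopril against irradiation alone was then 0.29 (SE 0.152, adjusted p = 0.368) and lisinopril against control -0.10 (SE 0.151, adjusted p = 0.754). Without irradiated library 4 as well, the first 2 values were -0.48 (adjusted p = 0.126) and 0.38 (adjusted p = 0.154), where the calls without the offset had passed. For miR-21-3p the difference between irradiated and control kidneys turned from 0.11 to -0.071 under the offset.

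Of 12 tested pro-fibrotic and TGF-beta linked miRNAs, miR-21-5p included, 1 rose and 0 fell by edgeR in irradiated against control kidneys, beside 1.67% of all tested miRNAs called there, with a median log2 fold change of -0.01. In that comparison 6 of the 12 had an unadjusted edgeR p under 0.05, beside 22.2% of all tested miRNAs. The riser was miR-34a-5p, a target of p53, at 52.4 ± 2.00 CPM in control and 306 ± 38.5 CPM in irradiated kidneys (log2 difference 2.54, edgeR adjusted p = 1.44e-08). It stood at 314 ± 46.4 CPM with lisinopril, again above control (2.58, adjusted p = 8.19e-09). miR-214-3p, a miRNA of stromal cells, had a log2 fold change of 0.84 in irradiated against control kidneys (adjusted p = 0.0709). That of miR-214-3p passed by DESeq2 (adjusted p = 0.0141) and without irradiated library 4 (adjusted p = 0.0243), and it was 0.48 without irradiated library 2 (adjusted p = 0.138). With the GC offset it was 0.49 (adjusted p = 0.141). DESeq2 called 3 of the 12 there: miR-34a-5p, miR-214-3p and miR-324-3p. In lisinopril against irradiation alone 0 of 12 passed by edgeR, with 3 at an unadjusted p under 0.05 (15.0% of all tested miRNAs) and a median of 0.11. miR-199a-5p had 0.35 there (adjusted p = 0.165) and miR-192-5p 0.46 (adjusted p = 0.291). miR-199a-5p passed by DESeq2 (adjusted p = 0.0435), by limma-voom with quality weights (adjusted p = 0.0135) and without irradiated library 4 (adjusted p = 0.0386). Against control the median with lisinopril was 0.32, beside 0.05 over all tested miRNAs. edgeR called 1 of the 12 there, beside 6.21% of all tested miRNAs, and 5 had an unadjusted p under 0.05, beside 22.7%. DESeq2 called 2, miR-34a-5p and miR-199a-5p, and limma-voom with quality weights called 4, with miR-214-3p and miR-382-5p besides. miR-382-5p had -0.74 (edgeR adjusted p = 0.0744). It passed in 6 of 28 alternatives, among them quality weights (adjusted p = 0.0286) and the GC offset (adjusted p = 0.0303).

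Of 15 anti-fibrotic miRNAs of the miR-29, miR-30, miR-200 and let-7 families, 0 passed in each comparison by edgeR, with 3, 1 and 3 at an unadjusted p under 0.05, and the medians were -0.04, -0.07 and -0.07. Of all tested miRNAs 22.2%, 15.0% and 22.7% had an unadjusted p under 0.05 in the same order of comparisons. DESeq2 and limma-voom called 0 as well, and limma-voom with quality weights called 1, miR-141-3p between the irradiated groups (adjusted p = 0.0231). By edgeR without irradiated library 4, miR-30a-5p (-0.54, adjusted p = 0.0352) and miR-30e-5p (-0.49, adjusted p = 0.0444) passed in irradiated against control kidneys. That fit also called miR-141-3p between the irradiated groups (1.04, adjusted p = 0.0321). With control library 2 left out as well, miR-141-3p (adjusted p = 0.0326) and miR-30a-5p (adjusted p = 0.0469) passed between those groups. The members with the smallest p in irradiated against control kidneys were miR-30e-5p (-0.40) and miR-30a-5p (-0.41), each at an edgeR adjusted p = 0.143. miR-21-5p (-0.60) had the same adjusted p. Their unadjusted p ranked 66th, 69th and 70th, and Benjamini-Hochberg adjustment can give such neighbours a shared value. With lisinopril against irradiation alone miR-30a-5p had 0.35 (adjusted p = 0.307) and miR-141-3p, of the epithelial miR-200 family, 0.60 (adjusted p = 0.353). Against control miR-200b-3p had -0.29 (adjusted p = 0.105) and miR-30e-5p -0.33 (adjusted p = 0.194).

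Among 10 tested kidney injury miRNAs, again with miR-21-5p, 0 passed by edgeR in irradiated against control kidneys, with 5 at an unadjusted p under 0.05 and a median of -0.20. Of all tested miRNAs 22.2% had an unadjusted p under 0.05 there. miR-210-3p, induced by hypoxia, had 0.55 (adjusted p = 0.0709) and miR-146a-5p, induced by NF-kB, had -0.74 (adjusted p = 0.105). DESeq2 called both of these. miR-210-3p also passed without irradiated library 4 (adjusted p = 0.0243), and was at 0.36 without irradiated library 2 (adjusted p = 0.124) and at 0.21 with the GC offset (adjusted p = 0.405). With lisinopril against control, miR-127-3p of the imprinted Dlk1-Dio3 cluster rose by 1.07 on the log2 scale, from 16.8 ± 0.461 to 35.3 ± 5.66 CPM (adjusted p = 0.00107). miR-494-3p of the same cluster fell by 1.55 on the log2 scale, from 3.42 ± 1.70 to 1.40 ± 0.887 CPM (adjusted p = 0.0308). Of all tested miRNAs 6.21% passed in that comparison. The floor of 3 counts in control library 2 is 3.19 CPM, near these levels of miR-494-3p. Its call was lost under 10 of 28 alternatives (adjusted p between 0.00275 and 0.110 over them), among them the fits without control library 1, 3 or 4 or without library 2, 3, 4 or 5 of the lisinopril group. With lisinopril against irradiation alone 0 passed by edgeR, with 2 at an unadjusted p under 0.05, beside 15.0% of all tested miRNAs. These were miR-127-3p (0.65, adjusted p = 0.0931) and miR-494-3p (-1.11, adjusted p = 0.248). Both passed by limma-voom with quality weights (adjusted p = 0.00272 and 0.0167), and DESeq2 and limma-voom called 0. By edgeR with the GC offset miR-127-3p passed at 0.86 (adjusted p = 0.00941). It passed with that offset and without irradiated library 4 (adjusted p = 0.00969), and without both control library 2 and irradiated library 4 (adjusted p = 0.0389). Without irradiated library 4 miR-494-3p passed too (adjusted p = 0.0386).

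Of 8 tested angiotensin-linked miRNAs, 1 fell in irradiated against control kidneys and 0 rose, with a median of -0.44. Among all 419 tested miRNAs 1.19% fell and 0.477% rose in that comparison, with a median of 0.02. Of the 8, 3 had an unadjusted edgeR p under 0.05 there, beside 22.2% of all tested miRNAs. miR-802-5p, at 11.4 ± 2.75 CPM in control, fell to 4.98 ± 1.68 CPM after irradiation (log2 difference of -1.14, edgeR adjusted p = 0.0216) and stood at 4.41 ± 0.536 CPM with lisinopril (-1.30 against control, adjusted p = 0.00226). The first of these calls was lost under 7 of 25 alternatives (adjusted p up to 0.0880), among them the fits that left out control library 1, control library 4, irradiated library 2 or irradiated library 3. miR-155-5p, abundant in activated immune cells, had -0.57 (adjusted p = 0.135) in irradiated and -0.60 (adjusted p = 0.0971) in lisinopril kidneys against control. In lisinopril against irradiation alone 0 passed by edgeR, DESeq2 or limma-voom, with 1 at an unadjusted p under 0.05 by edgeR (15.0% of all tested miRNAs). The smallest p belonged to miR-132-5p (1.09, adjusted p = 0.248) and miR-21-5p itself. miR-132-5p stood at 1.57 ± 0.374 CPM with lisinopril and at 0.726 ± 0.330 CPM in irradiated kidneys. The latter is near the floor of 3 counts, which was 0.372 to 0.561 CPM in irradiated libraries.

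Of 11 miRNAs linked to STAT3, AP-1 and NF-kB, the factors known to act on the miR-21 promoter or to share its stimuli, 0 passed in any of the 3 comparisons by edgeR, with 4, 2 and 2 at an unadjusted p under 0.05 and medians of -0.09, 0.08 and -0.08. Beside these counts stand 22.2%, 15.0% and 22.7% of all tested miRNAs at an unadjusted p under 0.05. miR-146a-5p had -0.79 in lisinopril against control kidneys (adjusted p = 0.0745), and miR-222-3p had -0.44 (adjusted p = 0.248) and miR-9a-5p 0.49 (adjusted p = 0.261) in lisinopril against irradiation alone. By DESeq2, miR-146a-5p passed against control in irradiated kidneys (adjusted p = 0.0498) and in those with lisinopril (adjusted p = 0.0225), in both cases lower. With lisinopril against control miR-146a-5p also passed by edgeR with the GC offset (adjusted p = 0.0421) and without control library 3 (adjusted p = 0.0438). miR-9a-5p passed between the irradiated groups by limma-voom with quality weights (adjusted p = 0.0135) and without irradiated library 4 (adjusted p = 0.0161).

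No marker of the cell types that a kidney can hold passed edgeR's test in any comparison. DESeq2 called miR-223-3p, miR-214-3p and miR-10a-5p in irradiated against control kidneys and miR-199a-5p in both comparisons of the lisinopril group. limma-voom called none, and with quality weights it called at least a marker in each comparison. The sums over kidney epithelial and over endothelial miRNAs were lower in irradiated libraries 1 to 3 than in every control, as miR-21-5p was, and in irradiated library 4 they were not. The 8 epithelial miRNAs, of which miR-10a-5p holds the most reads, summed to 430224 to 741191 CPM in control, 349491 to 482604 CPM in irradiated and 445670 to 576617 CPM in lisinopril kidneys, and 6 of the 8 had a negative log2 fold change in irradiated against control kidneys. Leukocyte miRNAs (6 of 6 tested) summed to 770 to 1108, 917 to 1381 and 744 to 1524 CPM in the same order of groups. Of these 6, 4 had a negative and 2 a positive log2 fold change in irradiated against control kidneys, with a median of -0.54. The leukocyte miR-223-3p had -0.61 there (edgeR adjusted p = 0.0650), at 47.2 ± 6.02 CPM in control and 31.1 ± 4.38 CPM in irradiated kidneys. Smooth muscle and fibroblast miRNAs (6 of 6) summed to 28808 to 40866, 33097 to 38552 and 27910 to 55994 CPM, and endothelial miRNAs (2 of 2) to 11645 to 14615, 8537 to 14043 and 10147 to 15599 CPM. Erythroid miRNAs (3 of 3) summed to 917 to 2092, 790 to 4202 and 673 to 3470 CPM. The 2 of 3 skeletal muscle miRNAs in the table summed to at most 43.1 CPM, the neural miR-9a-5p to at most 483 CPM, and the liver miRNA miR-122-5p was not in the table. The part of cell makeup in the miR-21-5p values was not tested.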

How the data were processed

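Small RNA libraries were made from Trizol-extracted kidney RNA with a TruSeq small RNA kit, per the labels' protocols. The submitters' processing notes name Trim Galore 0.2.5 for trimming, Bowtie 1.1.1 for alignment and the genome build rn4. The sources used here do not give the assignment of reads to miRNAs, or the treatment of reads that map to several places. The authors deposited whole-number read counts, not normalized as far as the values show.

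The 460 rat mature miRNAs were fitted in R 4.3.3 with edgeR 4.0.16: filterByExpr by group (41 removed), TMM, and the quasi-likelihood test on group means over all 13 libraries (biological coefficient of variation 0.247). Benjamini-Hochberg adjustment ran over 419 miRNAs, with a threshold of 0.05. log2 CPM adds a prior count of 2. Permutation tests of log2 CPM and of the arm ratio were exact and two-sided. Alternatives used DESeq2 1.42.0 and limma 3.58.1, among other settings. The fits were also run on simulated counts that held no GC trend per library. That simulation cannot check the GC offset where such a trend exists. Replicates are libraries of separate labels; where these are not separate animals, p-values measure only the spread between them. The named miRNAs were, besides the arms and seed relatives, the 5 most abundant and the neighbours in abundance, the 5 highest and 3 lowest r with miR-21-5p and the 3 highest within groups, and in each pathway list every called member and the 2 of smallest p. The members and lists were chosen with earlier results of these data known.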

Additional observations from a re-analysis of the deposited data

How the results depend on the processing

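No paired analysis was possible because the labels number the 13 kidneys singly and tie none across groups. All miR-21-5p differences kept their direction under every alternative, and that of miR-21-5p between lisinopril and control passed in none (-0.29 to -0.05). Leaving out 1 library gave -0.86 to -0.42 for miR-21-5p in irradiated against control kidneys and 0.23 to 0.67 between the irradiated groups. Without both control library 2 and irradiated library 4 these passed, at -0.79 (adjusted p = 0.0487) and 0.69 (adjusted p = 0.0395). miR-21-3p in irradiated against control kidneys turned negative in 3 alternatives: it was at -0.071 with the GC offset, at -0.30 with that offset and irradiated library 4 left out, and at -0.042 without control library 3. Leaving out each library in turn it ran from -0.042 to 0.25. The arm ratio passed in no alternative (-0.95 to -0.56, 0.10 to 0.42 and -0.67 to -0.27 for the 3 comparisons). None of its alternatives used the GC offset. Scaling by library totals alone moved the median of all miRNAs by 0.24 in irradiated against control kidneys and by -0.19 between the irradiated groups, and a library size without miR-10a-5p by 0.12 and -0.082; miR-21-5p was then at -0.34 and 0.25 with totals. The causes of these shifts were not tested. Both GC settings, and the fit of miRNAs with a RefSeq sequence only, were added after the data were seen.

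The number of miRNAs called in irradiated against control kidneys, 7 (2 higher, 5 lower), became 2 with library totals alone (2 higher, 0 lower), 37 with DESeq2 (19 and 18), 1 with only the 2 groups compared, 4 without miR-10a-5p in the library size (2 and 2), 1 with miRNAs named after other species added, 35 with both libraries left out (22 and 13), and 1 to 60 with 1 library left out. Between the irradiated groups 0 became 2 with RLE size factors, library totals alone, a mean of at least 10 CPM, limma-voom, no miR-10a-5p in the library size, or RefSeq sequences only, 11 with DESeq2, 33 with limma-voom and quality weights, 63 with both libraries left out, 4 with the GC offset, 7 with that offset and without irradiated library 4, and 0 to 47 with 1 library left out. Between lisinopril and control 26 became 17 with a mean of at least 10 CPM, 50 with quality weights, 40 with only the 2 groups, 47 with other species added, 46 with the GC offset, 47 with that offset and without irradiated library 4, and 13 to 43 with 1 library left out. The split there was 3 higher and 23 lower, and 20 higher and 26 lower with the GC offset. Depth limited miR-21-3p most in control library 2, with 72 reads.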

Other observations

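Predicted features of the table, outside the rat mature miRNAs, held counts close to those of miR-21-5p. A predicted miRNA window on chromosome 10 of rn4, from 74864475 to 74864611 (137 bases), held between 96.2% and 98.6% of the miR-21-5p count in each of the 13 libraries. A shorter predicted window inside it, from 74864500 to 74864586 (87 bases), held the identical count in 7 libraries and 0 in the other 6, which were control libraries 1 and 4, irradiated library 3 and lisinopril libraries 1, 3 and 4. These 6 libraries are of all 3 groups. The windows entered no comparison, and their rn4 positions were not set against the GRCr8 positions of the hairpin.

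Among 12 sets of group values (levels of both miR-21 arms, their ratio and the GC slope of the libraries), no library was flagged by Dixon's test at the 95% level, irradiated library 4 included. With 4 libraries the test flags a value only where its gap exceeds 0.829 of the group's range. For miR-21-5p the gap of irradiated library 4 was 0.585 of the range. So few libraries let the test miss a library that stands apart.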
